A study of Homo sapiens with 6 samples.

Results

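F-box protein genes encode the substrate receptors of the SCF ubiquitin ligases. They were examined here in bulk RNA from U-2 OS, an osteosarcoma cell line. Members were the protein-coding genes whose symbol was FBXO, FBXL or FBXW followed by a number, together with SKP2, and cyclin F (CCNF) was left out. This gave 64 genes of the 19921 protein-coding genes and 21447 genes of any kind in the files. The 36 FBXO genes carry various other domains or none, the 17 FBXL genes carry leucine-rich repeats, the 10 FBXW genes carry WD40 repeats, and SKP2, itself a leucine-rich repeat protein, makes up the rest.

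The F-box is a short motif that binds SKP1, which joins the receptor to the CUL1 scaffold and its RING subunit. The rest of each protein picks the substrates, often only after they are phosphorylated, and the ligase marks them with ubiquitin for the proteasome. In dividing cells SKP2 is known for removing the CDK inhibitor p27, FBXW7 for removing cyclin E, MYC, JUN and NOTCH, and FBXO5, also called EMI1, for inhibiting the APC/C ligase. FBXW7 has been described as a p53 target and FBXO5 as an E2F target.

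Untreated cells (3 libraries) were compared with cells taken 24 h after ionizing radiation (IR) at a dose of 4 Gy (3 libraries), and the same line and medium served both groups. The cells are 1 line, and the study calls the triplicates independent samples without saying whether they came from separate cultures or days, so p-values measure the spread between these libraries, which may be in part technical. In bulk RNA, fewer cells in a given state and less RNA per cell cannot be told apart. Libraries held 18573309 to 22953834 estimated counts, except IR replicate 3 with 45308792. The counts of IR replicate 3 also stood apart, with a chi-square per gene of 29.1 and 32.2 against the other irradiated libraries, which rises with depth, compared with 3.45 to 9.15 for the other replicate pairs. Results that rest on that library are given with and without it. Among 9 osteosarcoma and mesenchymal markers the summed level was 3856 to 4189 TPM in untreated and 3820 to 4498 TPM in irradiated libraries, with VIM, SPARC, COL1A1, FN1 and CDH2 abundant, whereas COL1A2 stayed below 1 TPM and TWIST1 was listed at 0 in the untreated libraries. The 5 epithelial markers summed to 19.7 to 24.6 TPM in untreated and 22.4 to 23.5 TPM in irradiated libraries, mostly EPCAM. The 5 blood cell markers summed to at most 3.50 TPM, with CD3E and HBB listed at 0 in every library, and the 5 endothelial markers summed to at most 2.83 TPM.

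Start regions are shown first for SKP2 and FBXO5, which fell, and for FBXW7, which rose, at the start of its 627-residue form. FBXO44 and FBXO2, which rose and which overlap on opposite strands at their starts, are shown too. The windows of FBXO44 and FBXO2 share no base. In the alternative analyses below, FBXW7 lost its call with an offset for effective length, and FBXO2 with the GC trend of each library removed. Each line is the 250 bases before a RefSeq start on GRCh38.p14, read along the gene's own strand. The positions are chr5:36151861-36152110 (plus strand) for SKP2, chr6:152983042-152983291 (minus) for FBXO5, chr4:152352827-152353076 (minus) for FBXW7, chr1:11654157-11654406 (plus) for FBXO44 and chr1:11654430-11654679 (minus) for FBXO2. Capitals mark a match to an E2F motif (TTTCCCGC, TTTCGCGC, TTTGCCGC or TTTGGCGC) or to the cell cycle homology region, CHR (TTTGAA), searched on both strands along with the p53 half-site.
SKP2: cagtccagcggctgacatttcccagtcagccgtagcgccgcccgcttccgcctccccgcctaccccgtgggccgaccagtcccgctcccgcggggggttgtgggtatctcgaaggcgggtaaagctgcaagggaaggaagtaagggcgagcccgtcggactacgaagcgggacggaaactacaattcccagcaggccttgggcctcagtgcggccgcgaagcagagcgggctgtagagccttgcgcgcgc
FBXO5: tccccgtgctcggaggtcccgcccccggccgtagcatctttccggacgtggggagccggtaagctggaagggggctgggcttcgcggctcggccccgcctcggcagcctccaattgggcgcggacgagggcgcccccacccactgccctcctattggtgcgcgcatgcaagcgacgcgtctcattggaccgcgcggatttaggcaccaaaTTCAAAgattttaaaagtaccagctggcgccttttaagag
FBXW7: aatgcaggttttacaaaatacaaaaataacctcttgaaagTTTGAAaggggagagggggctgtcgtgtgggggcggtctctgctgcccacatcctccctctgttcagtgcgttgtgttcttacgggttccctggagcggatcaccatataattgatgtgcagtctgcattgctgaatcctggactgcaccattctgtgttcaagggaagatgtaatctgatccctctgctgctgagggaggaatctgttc
FBXO44: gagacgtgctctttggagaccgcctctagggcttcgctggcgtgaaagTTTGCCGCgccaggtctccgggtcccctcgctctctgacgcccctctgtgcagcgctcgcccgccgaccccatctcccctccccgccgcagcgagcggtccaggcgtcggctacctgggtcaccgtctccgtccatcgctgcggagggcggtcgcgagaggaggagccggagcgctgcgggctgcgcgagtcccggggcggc
FBXO2: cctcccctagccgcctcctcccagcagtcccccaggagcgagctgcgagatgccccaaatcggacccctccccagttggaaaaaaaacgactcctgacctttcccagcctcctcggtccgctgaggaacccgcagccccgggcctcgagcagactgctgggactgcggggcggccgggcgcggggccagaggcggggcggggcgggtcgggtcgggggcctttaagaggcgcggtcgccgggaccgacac

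The RefSeq table held 70 such windows for 50 of the 64 genes, several genes having more than 1 start. An E2F match was found in 2 of the 70 windows, a CHR match in 4 and a p53 half-site in 2. Over 35116 windows of all genes the shares were 2.79%, 13.3% and 5.57%. None of the 3 motifs was found in the SKP2 window, and the FBXO5 window above held CHR only. The search covers these letters in these windows alone.

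After IR, 10 F-box genes rose and 9 fell at an adjusted p below 0.05 (edgeR's quasi-likelihood test with Benjamini-Hochberg adjustment over 14323 genes). Of the 64 genes, 58 passed the filter on low counts, so 17.2% of the tested members rose and 15.5% fell. Over all tested genes 15.5% rose and 14.5% fell, so both shares lay near the background. Levels in CPM (counts scaled to library size by TMM) of untreated and irradiated libraries did not overlap for 29 of the 58 members, 16 higher and 13 lower after IR, against 47.1% of all tested genes. The tested members divided evenly, 29 with a positive and 29 with a negative log2 fold change. Their median was -0.00087, and that of all tested genes was 0.01.

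**Figure D1:**
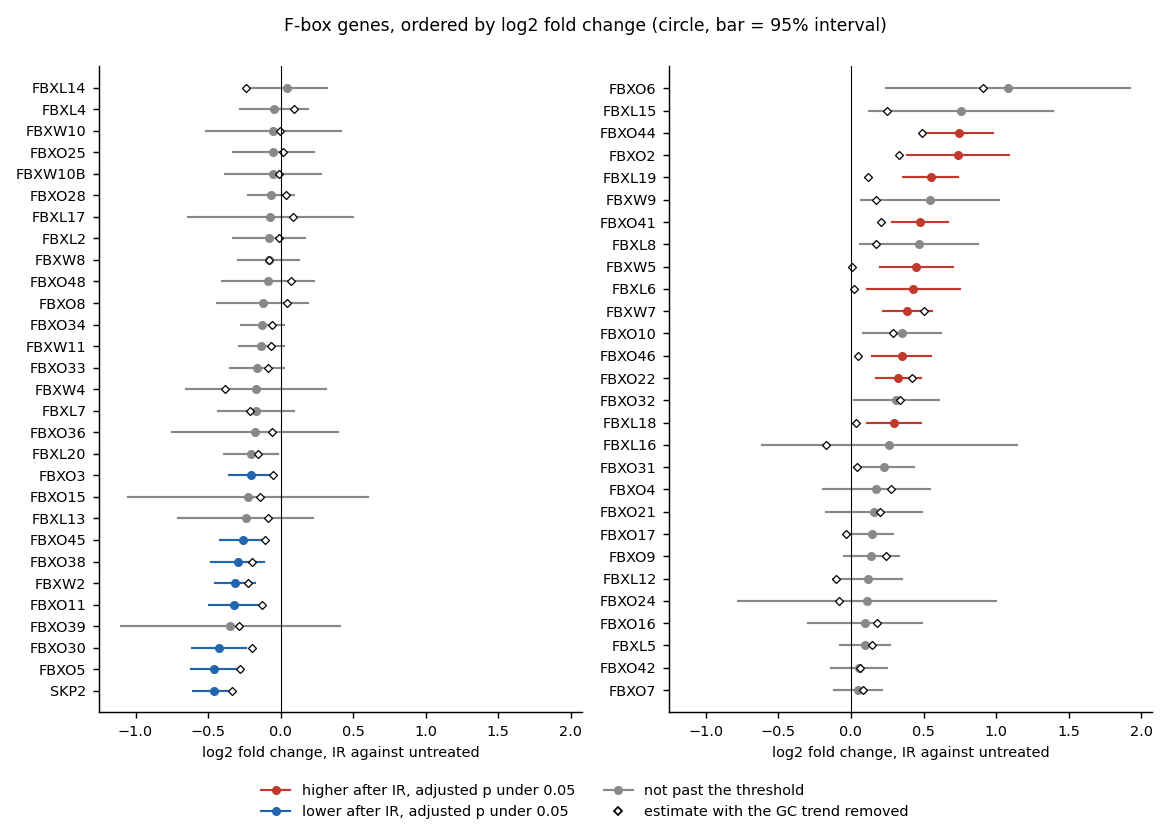
The plot gives the log2 fold change, irradiated against untreated, of 57 of the 58 tested F-box genes (circles, bars = 95% confidence interval), coloured by the test, with the estimate after removal of the GC trend of each library as open diamonds. The range runs from -0.46 for SKP2 to 1.08 for FBXO6, and for many genes of both directions the diamonds lie nearer 0 than the circles.

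Which members rose and which fell followed the base composition of their transcripts. The members that rose had a median GC content of 61.2%, those that fell 39.6% and the uncalled ones 47.6%, with 48.6% over all tested genes. Among the 21 tested members below 45% GC, 9 fell and 2 rose, FBXW7 and FBXO22. Between 45% and 55% GC, none of 18 passed the threshold. Among the 19 members above 55% GC, 8 rose, none fell, and the median log2 fold change was 0.43. Across the 58 genes, which are not independent replicates and share the same 6 libraries, Spearman's rho of GC content with log2 fold change was 0.73. The counts by GC range and rho were not taken over all tested genes. They are therefore not read as particular to F-box genes. When an offset took out the GC trend library by library, rho was 0.25 and 7 members kept their call. FBXO44, FBXW7, FBXO22 and FBXO41 remained higher, and SKP2, FBXO5 and FBXW2 remained lower. In that fit 11.1% of all tested genes were called higher and 13% lower, against 6.90% and 5.17% of the tested members. With an offset for effective length in each library, 6 members were higher (FBXO44, FBXL19, FBXO2, FBXO22, FBXO41 and FBXO10) and 5 lower (SKP2, FBXO5, FBXO30, FBXO38 and FBXW11), against 5.84% and 6.11% of all tested genes. SKP2, FBXO5, FBXO44, FBXO22 and FBXO41 were called in all 14 alternative analyses.

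**Figure D2:**
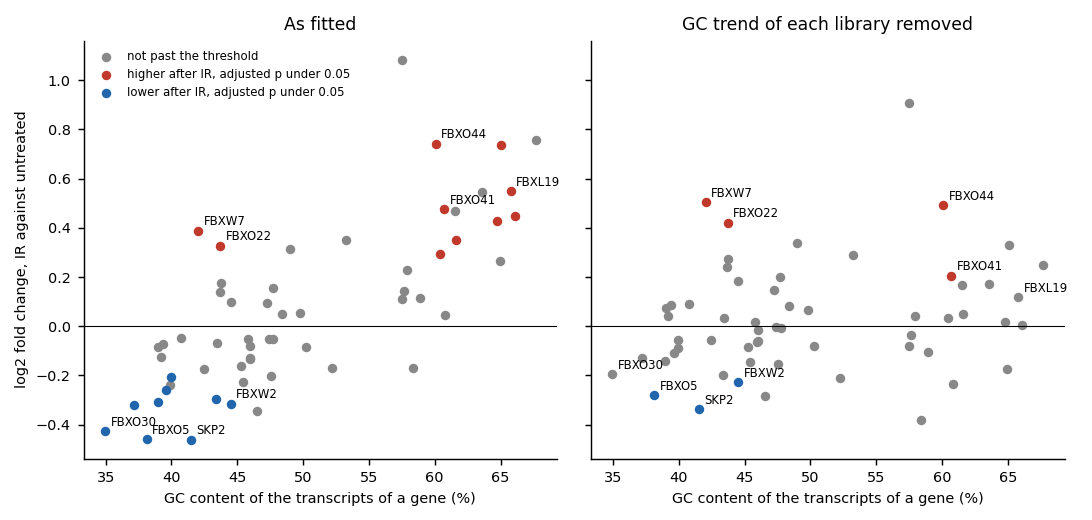
Log2 fold change of the 58 tested F-box genes (vertical axis) is plotted against the GC content of their transcripts in percent (horizontal axis), as fitted on the left and with the GC trend removed on the right. On the left, 8 of the 10 higher members lie above 55% GC and all 9 lower members below 45%, while on the right 4 higher and 3 lower members remain past the threshold. Shares of all tested genes by GC range were not taken.

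Of the receptors of the cell cycle, SKP2 and FBXO5 fell by nearly the same amount. SKP2 (ENSG00000145604, chr5:36151989-36196849, GRCh38) stood at 123, 115 and 115 CPM untreated and at 88.7, 82.9 and 84.8 CPM irradiated. All irradiated libraries were below all untreated ones. These gene values include transcripts without a coding sequence. Those were at 19.6, 17.3 and 14.7 TPM untreated and 15.8, 15.2 and 6.70 TPM irradiated, which overlapped. The log2 fold change was -0.46 ± 0.064 (SE, n = 3 per group), with an adjusted p of 0.00117 in edgeR's quasi-likelihood test, and it was -0.34 with the GC trend removed. SKP2 exons overlap those of NADK2 on the other strand, and strand use in the counting is not given in the sources used here.

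FBXO5 (ENSG00000112029, chr6:152970519-152983579) was at 55.02, 56.6 and 60.3 CPM in untreated and 43.8, 42.4 and 39.3 CPM in irradiated libraries. The groups were again apart, with a log2 fold change of -0.46 ± 0.073 (SE, adjusted p = 0.00195, edgeR) and of -0.28 with the GC trend removed. The transcript that encodes the full protein of 447 residues, which starts just after the window shown, carried 90.3% of the TPM of FBXO5. Its level was 45.3, 48.9 and 49.8 TPM in untreated and 37.4, 32.2 and 31.1 TPM in irradiated libraries, also without overlap.

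FBXW7 (ENSG00000109670, chr4:152320544-152536092) rose from 29.8, 31.3 and 30.0 CPM to 40.3, 42.1 and 37.1 CPM. The groups did not overlap, and the log2 fold change was 0.39 ± 0.076 (SE, adjusted p = 0.00487, edgeR). It was 0.50 with the GC trend removed, since FBXW7 lies at 42.0% GC, but -0.03 with the effective length offset (adjusted p = 0.918). On the TPM scale, which divides by effective length, the groups overlapped, with 23.0, 27.7 and 40.4 TPM untreated and 27.5, 25.02 and 33.4 TPM irradiated.

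FBXW7 makes 3 proteins from separate first exons. Transcripts of the 627-residue form were at 3.83, 5.60 and 5.12 TPM in untreated and 8.26, 5.88 and 7.36 TPM in irradiated libraries, so that every irradiated library was above every untreated one. Transcripts of the 707-residue form summed to 6.38, 5.66 and 3.07 TPM in untreated and 5.76, 5.19 and 3.58 TPM in irradiated libraries, which overlapped. The 589-residue form was listed at 0 in 3 of the 6 libraries and reached 2.06 TPM in IR replicate 2. Transcripts without a coding sequence, such as retained introns, ranged from 6.90 to 18.8 TPM in untreated and from 8.64 to 18.5 TPM in irradiated libraries. No change in the share of FBXW7 transcripts passed the usage test (diffSpliceDGE, adjusted p = 1).

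**Figure D3:**
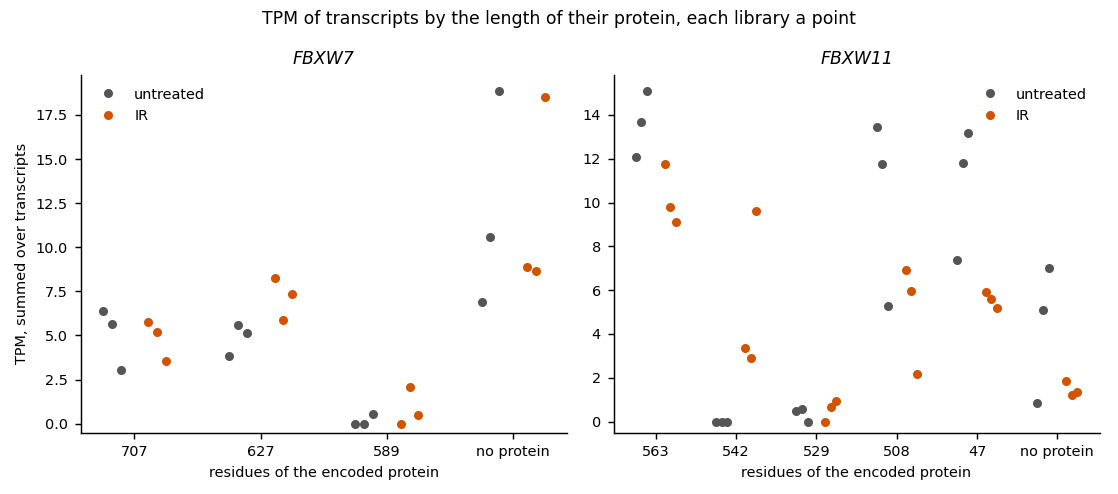
TPM summed over the transcripts that encode a protein of a given number of residues (horizontal axis) is shown for FBXW7 and FBXW11, with each library as a point. Irradiated libraries are above untreated ones for the 627-residue form of FBXW7 and overlap for the 707-residue form, and the 542-residue form of FBXW11 is at or near 0 in untreated libraries and at 2.92 to 9.62 TPM after IR.

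FBXW11, known as beta-TrCP2 and a receptor for beta-catenin and the NF-kappaB inhibitor IKBA, was the only member of 44 tested that passed the test of transcript usage (adjusted p = 4.39e-04, Simes p-value per gene). In all, 2.67% of the genes tested for usage passed. The 542-residue transcript was listed at 0 in 2 untreated libraries and at 1.1e-07 TPM in the other, and at 3.38, 2.92 and 9.62 TPM in irradiated libraries. The 563-residue transcript was at 12.1, 13.7 and 15.1 TPM untreated and 11.8, 9.81 and 9.13 TPM irradiated, and together these forms gave 12.1, 13.7 and 15.1 TPM against 15.1, 12.7 and 18.8 TPM. A value of 0 can be a failed split of reads between like transcripts. When only transcripts with at least 10 counts in every library were tested, which leaves the 542-residue one out, no member passed, whereas 3 passed without untreated replicate 1 and 2 without untreated replicate 3 or IR replicate 1. The gene as a whole was at 67.2, 73.5 and 70.8 CPM untreated and 66.0, 60.8 and 66.0 CPM irradiated (log2 fold change -0.13 ± 0.069, adjusted p = 0.168, edgeR).

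The fourth called cell cycle receptor was FBXW5, for which the centriole protein SASS6 has been described as a substrate. It was at 69.0, 74.9 and 86.2 CPM in untreated and 103, 89.5 and 121 CPM in irradiated libraries, with IR replicate 3 the highest. Its log2 fold change was 0.45 ± 0.114 (adjusted p = 0.0153, edgeR), 0.32 without IR replicate 3 and 0.0051 with the GC trend removed. The remaining cell cycle members with a test did not pass it. Of the 11 in this group 10 were tested, 2 rose and 2 fell, against 15.5% and 14.5% of all tested genes. The median log2 fold change of the group was 0.05.

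**Figure D4:**
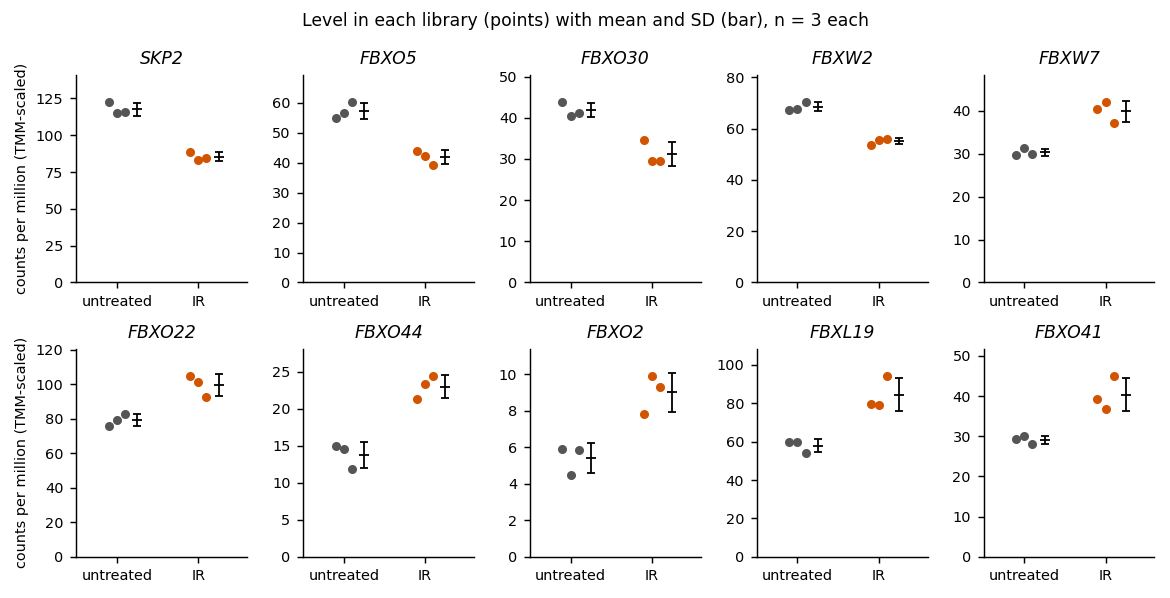
CPM values of 10 called F-box genes are shown in each library (points), untreated and irradiated, with the mean and SD (n = 3 each). The 4 genes that fell (SKP2, FBXO5, FBXO30 and FBXW2) and the 6 that rose have no overlap between groups. They were picked from the called members, none of which overlapped, and 47.1% of all tested genes did not overlap either.

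Receptors linked to p53 or chromatin included FBXO22, which is known to act on KDM4 demethylases and BACH1. FBXO22 (ENSG00000167196, chr15:75903876-75942511) was at 75.8, 79.2 and 82.6 CPM untreated and 105, 101 and 92.7 CPM irradiated, without overlap. Its log2 fold change was 0.33 ± 0.071 (adjusted p = 0.00767, edgeR) and 0.42 with the GC trend removed. Its exons overlap those of NRG4 on the other strand.

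The transcripts of FBXO22 were looked at after the gene's values were seen. The transcript of the full 403-residue protein was at 36.3, 38.1 and 37.7 CPM in untreated and 40.8, 37.3 and 32.3 CPM in irradiated libraries, which overlapped. The FBXO22-207 transcript, annotated as a target of nonsense-mediated decay with a reading frame of 46 residues, was at 26.1, 27.6 and 29.4 CPM and then at 40.3, 42.7 and 42.4 CPM, without overlap. These transcript values are descriptions, since no difference in usage passed the test for FBXO22 (diffSpliceDGE, adjusted p = 1.00).

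FBXL19, which binds CpG-rich DNA through a CXXC zinc finger, rose from 59.6, 59.9 and 53.9 CPM to 79.9, 78.9 and 94.3 CPM. The log2 fold change was 0.55 ± 0.086 (adjusted p = 0.00183, edgeR), and 0.12 with the GC trend removed (adjusted p = 0.175), FBXL19 being at 65.8% GC. FBXO11, a receptor for BCL6, fell from 112, 114 and 123 CPM to 98.9, 96.7 and 84.0 CPM (log2 fold change -0.32 ± 0.079, adjusted p = 0.0131, edgeR), and was -0.13 with the GC trend removed (adjusted p = 0.123). FBXO11 exons overlap those of MSH6 on the other strand.

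A subfamily of 5 FBXO proteins carries the FBA domain, with which FBXO2 and FBXO6 recognise N-glycans on misfolded glycoproteins. All 4 that were tested had a positive log2 fold change and no overlap between groups, against the 47.1% of all tested genes without overlap. The threshold was passed by 2 of them, and 15.5% of all tested genes were called higher. All 4 lay above 55% GC, where 18 of the 19 members were positive, and with the GC trend removed FBXO17 was at -0.04. FBXO44 (ENSG00000132879, chr1:11654375-11663327, plus strand) was at 14.9, 14.6 and 11.8 CPM untreated and 21.2, 23.2 and 24.4 CPM irradiated. The log2 fold change of 0.74 ± 0.108 (adjusted p = 0.00133, edgeR) remained at 0.49 with the GC trend removed. FBXO2 (ENSG00000116661, chr1:11637018-11655785, minus strand) was at 5.93, 4.46 and 5.86 CPM and at 7.84, 9.91 and 9.30 CPM. The difference was 0.74 ± 0.158 on the log2 scale (adjusted p = 0.00737, edgeR), and 0.33 with the GC trend removed (adjusted p = 0.181).

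FBXO2 and FBXO44 share 1411 bases on opposite strands, and FBXO6 begins 873 bases after the end of FBXO44, so the 3 genes form 1 cluster on chromosome 1. Reads from the exons that overlap may count for either gene unless strand was used. FBXO6, named here after its values were seen, was at 0.329, 0.491 and 0.244 CPM and at 0.726, 0.926 and 0.686 CPM, without overlap, and did not pass the test (log2 fold change 1.08 ± 0.379, adjusted p = 0.0534, edgeR). FBXO17, on chromosome 19, was at 44.8, 43.7 and 43.0 CPM and at 46.95, 48.8 and 49.4 CPM (log2 fold change 0.14 ± 0.065, adjusted p = 0.120, edgeR). FBXO17 exons overlap those of ENSG00000269547 on the same strand. The median over the 4 genes was 0.74, and 0.41 with the GC trend removed.

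Among the 10 receptors known from muscle or nerve, 8 were tested. FBXO30, described in muscle wasting, fell from 43.9, 40.5 and 41.2 CPM to 34.6, 29.5 and 29.5 CPM, with no overlap. The log2 fold change was -0.43 ± 0.084 (adjusted p = 0.00505, edgeR), and -0.20 with the GC trend removed (adjusted p = 0.0552), FBXO30 having the lowest GC content of the tested members, 34.96%. FBXO41, known from neurons, rose from 29.3, 30.0 and 28.0 CPM to 39.3, 36.9 and 45.01 CPM. This was a log2 fold change of 0.48 ± 0.088 (adjusted p = 0.00373, edgeR), and 0.21 with the GC trend removed (adjusted p = 0.0441). FBXO45, a partner of the neuronal ligase MYCBP2, fell from 56.4, 55.5 and 58.7 CPM to 50.8, 45.5 and 46.1 CPM (log2 fold change -0.26 ± 0.071, adjusted p = 0.0197, edgeR). FBXO45 lost its call in 6 of the 14 alternatives, and its exons overlap those of WDR53 on the other strand.

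Of the receptors tied to iron or mitochondria, none of 3 passed. FBXO7, mutated in a form of parkinsonism, was at 113, 110 and 96.2 CPM untreated and 108, 109 and 114 CPM irradiated, and FBXL5, the iron sensor that acts on IREB2, was at 26.3, 23.7 and 25.2 CPM and at 27.3, 27.5 and 25.7 CPM. Their log2 fold changes were 0.05 (95% interval -0.12 to 0.22) and 0.10 (-0.08 to 0.27).

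Among 8 members of signalling and protein quality control, 2 fell, where 14.5% of all tested genes did. FBXO38, a receptor for PD-1 in T cells, fell from 35.2, 32.9 and 37.4 CPM to 30.3, 28.9 and 26.9 CPM (log2 fold change -0.30 ± 0.082, adjusted p = 0.0215, edgeR). FBXO3 was at 51.9, 49.1 and 50.8 CPM and at 42.1, 46.1 and 43.6 CPM (log2 fold change -0.20 ± 0.068, adjusted p = 0.0440, edgeR) and passed in only 4 of the 14 alternatives. FBXO9, which acts on mTOR partners, was at 72.6, 69.3 and 67.5 CPM and at 72.8, 70.5 and 86.8 CPM, and did not pass (adjusted p = 0.241, edgeR). In that gene the irradiated libraries overlapped the untreated ones, and IR replicate 3 was the highest. The log2 fold change of FBXO9 was 0.14, and 0.03 without IR replicate 3. FBXO9 exons overlap those of ENSG00000288646 on the same strand.

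Of the 22 other members, 20 were tested, 3 rose and 1 fell, against 15.5% and 14.5% of all tested genes. FBXW2, for which SKP2 is among the described substrates, fell from 67.3, 67.9 and 70.6 CPM to 53.8, 55.7 and 55.8 CPM. Its log2 fold change was -0.32 ± 0.063 (adjusted p = 0.00536, edgeR), -0.23 with the GC trend removed (adjusted p = 0.0189) and -0.26 with the length offset (adjusted p = 0.154). FBXW2 exons overlap those of B3GALT9 on the other strand. FBXO46 rose from 13.4, 12.04 and 12.7 CPM to 16.0, 15.6 and 16.8 CPM (log2 fold change 0.35 ± 0.092, adjusted p = 0.0181, edgeR). FBXL18 rose from 79.4, 80.2 and 74.8 CPM to 88.7, 90.5 and 108 CPM (log2 fold change 0.29 ± 0.084, adjusted p = 0.0246, edgeR), and its value was 0.19 without IR replicate 3 (adjusted p = 0.0415). FBXL6 was at 23.8, 24.3 and 23.9 CPM and at 28.2, 26.9 and 41.0 CPM, with IR replicate 3 far above the others. Its log2 fold change of 0.43 ± 0.143 (adjusted p = 0.0455, edgeR) became 0.19 without IR replicate 3 (adjusted p = 0.0893). The FBXL6 exons overlap those of SLC52A2 on the other strand and of ENSG00000271698 on the same strand. Reads from a same-strand overlap may count for either gene even if strand was used. With the GC trend removed, the values of FBXO46, FBXL18 and FBXL6 were 0.05, 0.03 and 0.02, and none passed.

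Without IR replicate 3, 9 members were higher and 9 lower, and FBXL6 was the call lost. The share of all tested genes called was not taken for fits without 1 library, so these counts have no background beside them. Of the 19 called members, 11 were called whichever library was left out. The 10 higher calls became 6 without untreated replicate 2, and the 9 lower calls became 5 without untreated replicate 3. FBXO46 lost its call without untreated replicate 2, FBXO11 without untreated replicate 3, and FBXW5 without untreated replicate 1 or 2. FBXL18 lost it without any 1 of the untreated libraries, and so did FBXL6. FBXO38 lost it without untreated replicate 1 or 3 or IR replicate 2, FBXO45 without any 1 untreated library or IR replicate 2, and FBXO3 without any 1 library but IR replicate 3. FBXW10 and FBXW10B are close copies, so the split of reads between them is uncertain, and neither passed.

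Levels between genes were compared per length, in TPM. In untreated cells the highest member was FBXO9, at 78.3 ± 4.35 TPM (SD, n = 3), followed by FBXO7 at 77.5 ± 16.1, SKP2 at 71.3 ± 0.664, FBXO11 at 68.3 ± 9.94, FBXO22 at 59.7 ± 6.04 and FBXO5 at 53.03 ± 1.91 TPM. Neighbours in this order overlapped over their libraries as far as FBXO22, and FBXO5 lay below FBXO22 in every library, by a narrow margin (at most 54.6 against at least 54.7 TPM). The median member was at 7.89 TPM, 23 of the 58 were over 10 TPM and 3 were below 1 TPM. The transcript that the annotation names as canonical carried a median of 31.6% of the TPM of its gene and most of it in 18 of the 58 members, so gene values often sum over shorter transcripts. For SKP2 the canonical 424-residue transcript was listed at 0 in every untreated library and at 0, 0.711 and 0.668 TPM in irradiated ones. Its direction was opposite to the fall of the gene, and it carried 0.387% of the gene's TPM. The 410-residue one was at 4.96, 2.13 and 5.15 TPM untreated and 2.10, 2.81 and 2.16 TPM irradiated, which overlapped. Of the 19 called members, 10 had a canonical transcript whose TPM moved the same way without overlap. These members were called from the same libraries, and no share over all genes was taken, so this count is a description. It includes transcripts with little of their gene's TPM, such as those of FBXO11 (4.84%) and FBXO44 (16.7%).

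The 6 members that did not pass the filter were FBXL22, FBXO27, FBXO40, FBXO43, FBXO47 and FBXW12. None exceeded 20 counts in a library, and FBXO47 was listed at 0 in all 6. FBXO43, or EMI2, is the meiotic relative of FBXO5, and it held at most 7 counts.

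Of 31 genes of the SCF core, its neddylation and its exchange, 30 were tested, 1 rose and 3 fell, against 15.5% and 14.5% of all tested genes. The split turned with the GC trend removed, to 4 higher and 1 lower, so no direction holds for the list. Its median log2 fold change was -0.01. RNF7, a RING subunit, rose by 0.29 (adjusted p = 0.0214, edgeR), and UBE2G1, a ubiquitin-conjugating enzyme, CAND1, the exchange factor, and COPS3, a COP9 signalosome subunit, fell by 0.23, 0.22 and 0.21. The subunits shared by the SCF ligases, named here whatever their values, did not pass. SKP1 had a log2 fold change of 0.03, CUL1 of -0.07 and RBX1 of 0.18. The 4 calls of this list became 0 without untreated replicate 1 or 2, 2 without untreated replicate 3 and 1 without IR replicate 2 or with the length offset. Of 8 other genes with an F-box, or once listed as such, 7 were tested. KDM2A, a demethylase with a CXXC finger, fell by 0.28 and CCNF by 0.30, and TSPAN17 rose by 0.30, all past the threshold. The 3 calls became 1 without untreated replicate 1 or 2 or IR replicate 2, 0 with the length offset, and 2, both lower, with the GC trend removed.

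Among 44 genes whose proteins are known substrates or partners of these receptors, 8 rose and 12 fell, and 5 were higher and 13 lower with the GC trend removed. Among all tested genes 15.5% rose and 14.5% fell. Those with the lowest p were CDKN1A (p21), CCND2 and CCND1, with log2 fold changes of 1.53, 0.63 and 0.52, and CCNE2 fell by 0.71. CDKN1B, which encodes the SKP2 substrate p27 and was picked out after its values were seen, fell from 59.4, 58.9 and 69.4 CPM to 48.0, 45.2 and 45.2 CPM. The log2 fold change of CDKN1B was -0.44 (adjusted p = 0.00365, edgeR). CCNE1 and MYC, named as FBXW7 substrates, had log2 fold changes of 0.10 and 0.16 and did not pass. CCNE2, also a cyclin E gene, fell as given above. The values of JUN and the NOTCH genes in the list are not given, so FBXW7 substrates are not covered as a set. The median of the list was -0.04, and 13 genes of the list were called with the length offset, against 20 as fitted.

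Of 28 E2F target genes, the list to which FBXO5 is said to belong, 17 fell, where 14.5% of all tested genes did, and none rose, with a median log2 fold change of -0.28 (7 called with the length offset). E2F8 fell by 0.87, CCNE2 by 0.71, RBL1 by 0.65 and RRM2 by 0.51. Of 27 tested p53 target genes, the list to which FBXW7 is said to belong, all 27 rose, where 15.5% of all tested genes did. Their median was 0.71, and 22 were called with the length offset. BBC3, CDKN1A, FDXR and BTG2 rose by 1.55, 1.53, 1.499 and 1.17. FBXW7, at 0.39, lay below that median. These lists were written from general knowledge with earlier results in view, so their counts are descriptions.

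**Figure D5:**
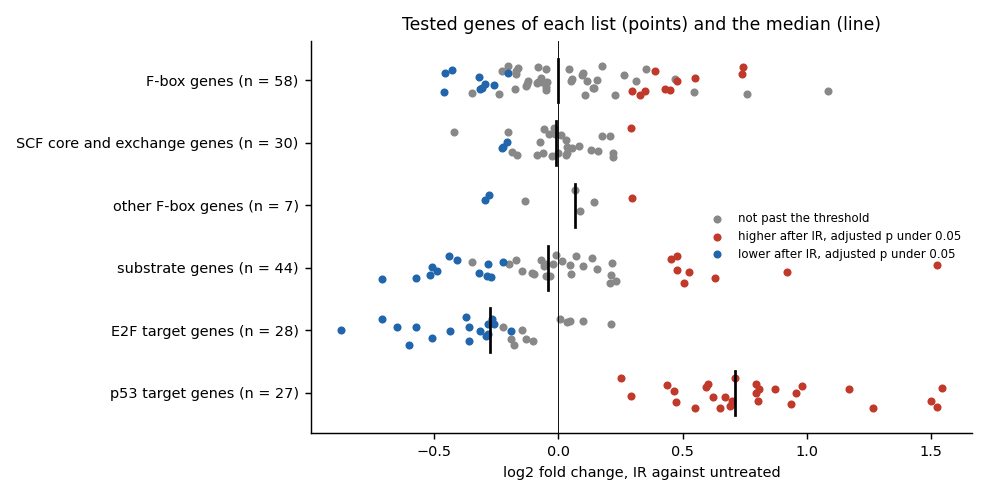
Each point is a tested gene of the list on the vertical axis at its log2 fold change, irradiated against untreated, coloured by the test, and the black line is the median. F-box genes spread to both sides of 0, while 17 of 28 E2F target genes are called lower and all 27 tested p53 target genes are called higher. Of all tested genes 14.5% are called lower and 15.5% higher.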

How the data were processed

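Untreated U-2 OS cells (3 libraries) and cells 24 h after 4 Gy of IR (3 libraries) were profiled by RNA-seq, and the sample labels gave the groups. Per the paper, adaptors were cut with fastp and reads were pseudoaligned with kallisto (GENCODE 37, GRCh38). The authors deposited, per transcript, an estimated count, which is not normalized, a TPM value scaled for effective length and library total, and the lengths. The kallisto version and the strand setting are not given in the sources used here. The labels name polyA RNA and an mRNA kit, the paper's methods a total RNA kit. Effective length exceeded length for 28.1% of transcripts in untreated replicate 1, so the length offset may also act on sequence bias.

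Of 161171 transcripts, 158711 matched GENCODE release 44 and 2460 were left out, and 98.2% to 98.5% of the counts of each library were kept. Estimated counts were summed per gene, rounded to whole numbers and kept by filterByExpr. After TMM scaling, the quasi-likelihood test (glmQLFit, glmQLFTest) of edgeR 4.0.16 was used (limma 3.58.1, R 4.3.3) with Benjamini-Hochberg adjustment at 0.05. SE is the absolute log2 fold change over the root of F. GC content and length are means over the transcripts of a gene weighted by TPM, and the GC trend was a spline with 4 degrees of freedom per library. Transcript usage was tested by diffSpliceDGE. The 14 alternatives were other filters, DESeq2 1.42.0 and its size factors, the likelihood ratio test, a replicate block, GC and length offsets and each library left out. Scripts were checked on simulated data. Replicate libraries differed by more than sampling noise (chi-square per gene of at least 3.45). IR replicate 3 is deepest and has the smallest counting error, but differs most from its replicates (29.1 and 32.2, a measure that rises with depth). The name of its deposited file carries a mark that could stand for a repeat.

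Members and lists were chosen with earlier results of these data known. Named genes were SKP2, FBXO5, FBXW7, up to 12 called members per direction by lowest p, the 5 uncalled members of highest mean TPM, members called for usage, the transcripts of FBXW7, and up to 4 called genes of each list. FBXO6, FBXO10, SKP1, CUL1, RBX1, CDKN1B, CCNE1, MYC and the transcripts of other members lie outside that rule. Start regions are from RefSeq (GRCh38.p14). The values of 1 called member are not reported here, though it stays in the counts.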

Additional observations from a re-analysis of the deposited data

How the results depend on the processing

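The 10 members called higher became 4 with the GC trend removed and 6 with the length offset, and 6 to 11 with 1 library left out, the lowest without untreated replicate 2. The 9 called lower became 3 and 5, and 5 to 9 with 1 library left out, the lowest without untreated replicate 3. The cause of these changes was not tested, and shares of all tested genes were not taken for the fits with 1 library left out. The median log2 fold change of the members was -0.048 with at least 10 counts in every library, 0.063 with the length offset and -0.025 to 0.037 with 1 library left out. The rise of FBXW7 was lost with the length offset, at -0.034 (adjusted p = 0.918, edgeR). With the length offset, called genes fell from 4 to 1 in the SCF list, from 3 to 0 among other F-box genes and from 20 to 13 among substrates. Among E2F targets they fell from 17 to 7, and among p53 targets from 27 to 22. With 1 library left out, the SCF list held 0 to 5 called genes, 0 without untreated replicate 1 or 2, and the other F-box genes 1 to 2. Transcript usage was called in 1 member, in 0 with at least 10 counts in every library and in 1 to 3 with 1 library left out.

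Same-numbered libraries did not deviate together (correlations of -0.017, 0.0072 and -0.052), so the numbers were not taken to pair samples. With a replicate block, 10 members were higher and 8 lower, and called genes numbered 1 in the SCF list, 1 among other F-box genes, 18 among substrates, 15 among E2F targets and 25 among p53 targets. The share of all tested genes called with the block was not taken.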
